A study of Glycine max with 6 samples.

Results

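*Glyma01g24530* is the soybean (*Glycine max*) gene on chromosome 1 whose description in the study's annotation makes it a close match of *Arabidopsis* P5CS1 (AT2G39800). It was taken by its gene ID in the deposited annotation of the array, where it has 1 probe (probe set 11768538) of 66195, and no other probe held the same 6 values. It was chosen by its log2 difference between drought-stressed and well-watered leaves in these samples, so its own values are given as a description and without a test. RNA came from the fourth trifoliate leaf of cv. Williams 82, in an experiment whose drought began at the late vegetative V6 stage. Water was withheld from 3 plants for 6 days, until the soil held 5% moisture (drought plants 1, 2 and 4). Another 3 plants were watered as usual (well-watered plants 14, 15 and 16). The study calls these V6 leaves, and its methods describe the plants as beginning to bloom at collection. Plants grew at 3 to a pot in a greenhouse, and the treatment protocol puts the start of drought at 28 days after sowing, while the growth protocol gives 35 days for V6. Each plant has 1 array. Whether plants shared a pot is not given in the sources used here, and in a whole leaf more cells of a type and more RNA per cell cannot be told apart.

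Delta-1-pyrroline-5-carboxylate synthase (P5CS) turns glutamate into the precursor of proline and is held to be the rate-limiting enzyme of that route. Proline is a compatible solute that many plants build up when water is short, and a source of carbon and nitrogen once water returns. In *Arabidopsis*, P5CS1 is the isoform known for its induction by drought and ABA. A second route to the same precursor starts from ornithine, which arginase releases from arginine.

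The leaves of all 3 drought-stressed plants had a far higher P5CS1-match signal than those of all 3 well-watered plants. The deposited values are log2 signals relative to the probe's own median over the 6 arrays, so they show changes between plants and no absolute level. Under drought, *Glyma01g24530* had log2 values of 3.52 in plant 1, 3.67 in plant 2 and 3.84 in plant 4. With water, it had values of -3.62 in plant 14, -3.52 in plant 15 and -3.82 in plant 16. The groups lay far apart, and the plants of a group lay close together, with a range of 0.31 under drought and 0.30 with water. The equal size of the values of plants 1 and 15 comes from the centring, which puts 0 midway between the lowest drought-stressed and the highest well-watered plant.

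**Figure D1:**
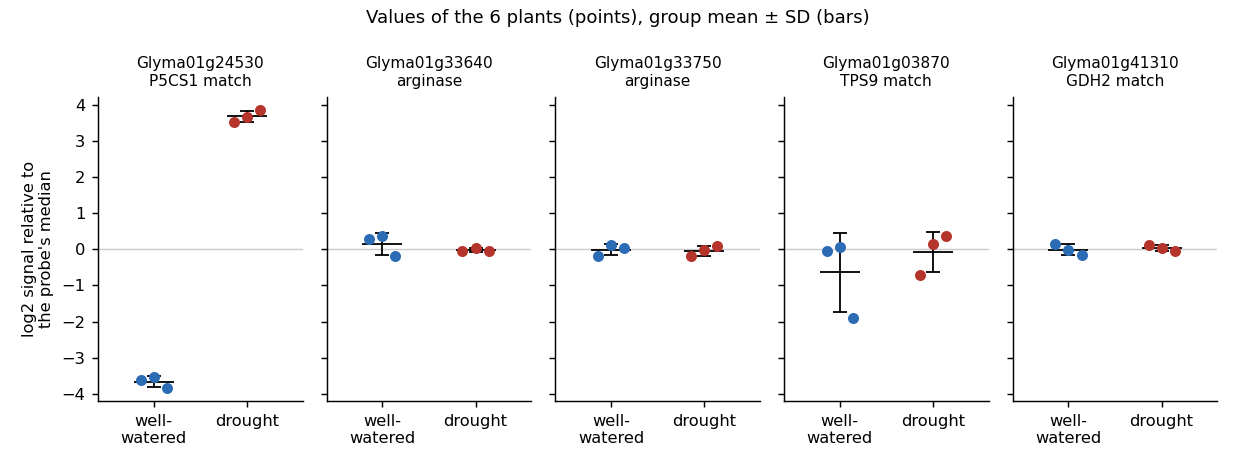
Log2 signal relative to each probe's median (y axis, a shared scale) in well-watered (blue) and drought-stressed (red) plants, with group mean and SD as bars (n = 3 plants). *Glyma01g24530* lies below -3.5 in every well-watered plant and above 3.5 in every drought-stressed plant, while the groups of the other 4 genes overlap.

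The drought-stressed plants had a mean of 3.68 ± 0.16 (SD, n = 3) and the well-watered plants one of -3.65 ± 0.15 (SD, n = 3). The log2 difference was 7.33 (standard error 0.17 from limma), a 161-fold higher signal. Single plants can also be set against each other, which gives 9 pairs that share their plants. The smallest log2 difference was 7.05 (132-fold), between drought plant 1 and well-watered plant 15. The largest was 7.66 (202-fold), between drought plant 4 and well-watered plant 16. All 9 pairs were thus of the same order of size. Over all probes, the 3 drought-stressed plants lay above the 3 well-watered plants for 14.4%.

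Among all 66195 probes, *Glyma01g24530* had the 8th largest log2 difference. Rises and falls together, it was also the 8th, since the largest fall was -6.85. In single pairs of plants its place lay between 6th and 15th. By the gap from the lowest drought-stressed to the highest well-watered plant it was the 7th, and 5 probes had a larger difference than it in every one of the 9 pairs. Its places on each array follow from the same difference, since each probe is centred on its own median, and they show no level. In drought plants 1, 2 and 4 *Glyma01g24530* was the 13th, 11th and 17th highest of all centred values. In well-watered plants 14, 15 and 16 it was the 6th, 16th and 21st lowest.

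The exact place in this order says little, because most of the nearest probes do not differ from it beyond their errors. The probes just above were *Glyma07g12780*, *Glyma07g12750* and *Glyma03g24320*, with log2 differences of 7.93, 7.75 and 7.44. Those just below were *Glyma14g24860*, *Glyma09g31740* and *Glyma17g10950*, with 7.28, 7.22 and 7.15. Their standard errors ran from 0.23 to 0.29, so for *Glyma03g24320* and the 3 probes below, the distance from *Glyma01g24530* was smaller than their own standard error. The largest rise of all, that of *Glyma05g05430* at 9.20, lay well apart. The sources used here give no description for any of these IDs.

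**Figure D2:**
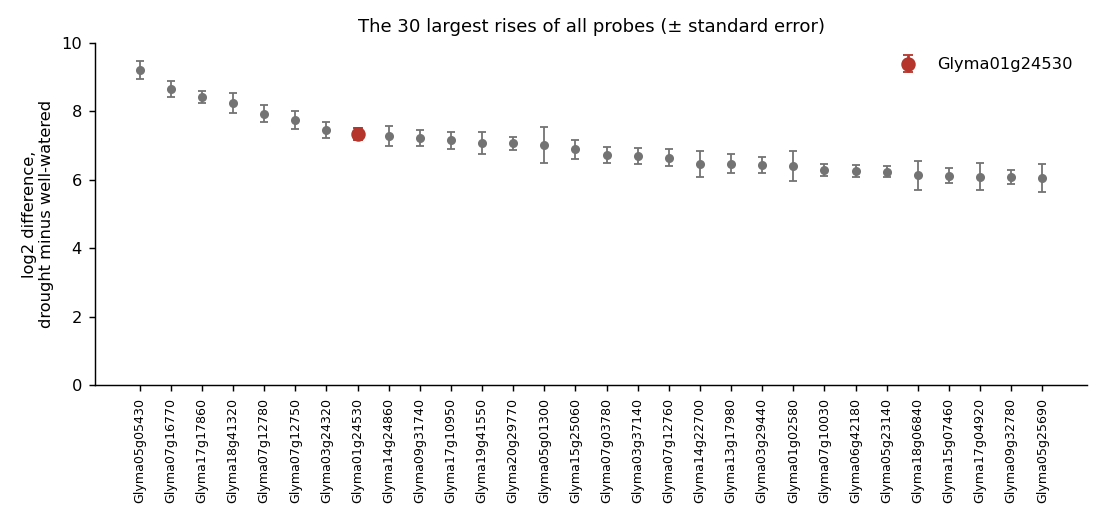
The 30 largest log2 differences of drought-stressed minus well-watered leaves (y axis) by gene ID, with standard errors from limma as bars. *Glyma01g24530* (red) is the 8th at 7.33, and its error bar is short. It overlaps the bars of all probes from *Glyma07g12750* above it to *Glyma15g25060* below it.

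The plants of a group varied little in *Glyma01g24530* for a rise of this size. Its pooled SD within groups was 0.15 on the log2 scale, below the median of 0.23 over all probes, and 20.8% of all probes had a smaller one. The spread was wider in probes with larger rises. The median pooled SD was 0.23 for probes with a log2 difference of 0 to 0.5, 0.28 for 1 to 2, 0.38 for 3 to 4, 0.37 for 4 to 5 and 0.40 for the 70 probes that rose more than 32-fold. Of these 70, 6 had a smaller pooled SD than *Glyma01g24530*, and 0 had both a smaller SD and a larger difference. Among the 2864 probes called higher, by limma with a fold of 2 or more and an adjusted p below 0.05, 11.2% had a smaller SD. Well-watered plant 14 matters here, since without it 37.4% of all probes had a smaller pooled SD, and quantile normalization of the arrays raised that share to 52.5%. The scatter of change against spread shows the gene at the lower edge of the large rises.

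**Figure D3:**
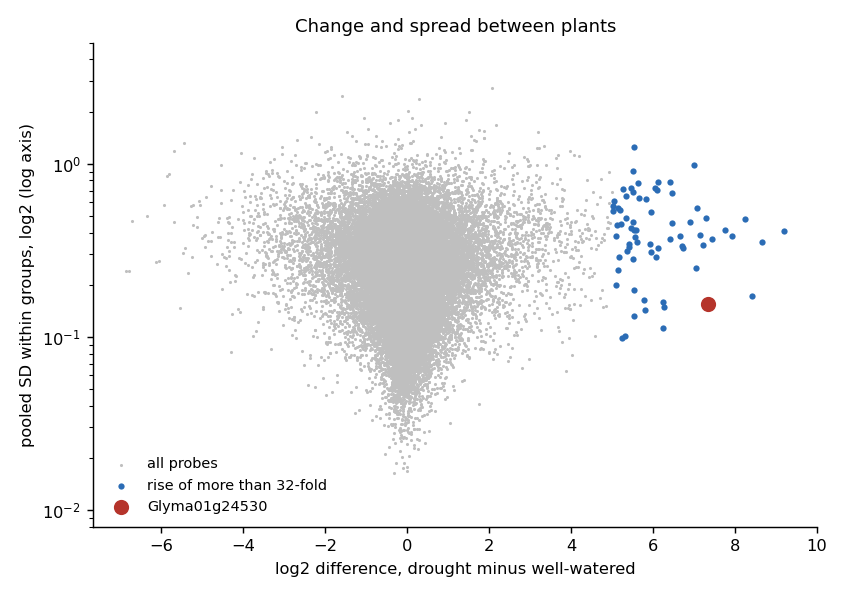
Each point is a probe, with the log2 difference of drought-stressed minus well-watered leaves on the x axis and the pooled SD within groups, on a log axis, on the y axis. *Glyma01g24530* (red, 7.33 and 0.15) lies below most of the 70 probes that rose more than 32-fold (blue), whose median SD is 0.40.

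The 6 tighter probes were *Glyma01g41330*, *Glyma04g08740*, *Glyma05g23140*, *Glyma07g10030*, *Glyma13g01870* and *Glyma16g04190*. They rose by less, with log2 differences between 5.25 and 6.28. As a result, *Glyma01g24530* was the 2nd of all probes when ranked by the difference over its standard error, 43.1. The 1st was *Glyma17g17860*, at 48.1, with a log2 difference of 8.42 and a pooled SD of 0.17. This place rests on the way the standard error is made, since limma draws the variance of each probe towards a common value. With the plain pooled SD the gene was the 7th, with a difference 47.5 times that SD, and without well-watered plant 15 or 16 it was the 4th in limma.

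In the deposited values, the SDs of the 2 groups were of like size in this gene. The SD was 0.16 under drought and 0.15 with water, a ratio of 1.03. Among all probes, the deposited values varied more between well-watered plants, and the SD under drought was the larger for 36.0%. In the same values, the spread of *Glyma01g24530* under drought lay near the middle, with 42.7% of all probes below it. Its spread with water was low, with 16552 of the 66195 probes below it. The well-watered arrays also differed in their medians over all probes, which were 0.13, 0.029 and -0.097 in plants 14, 15 and 16, against -0.0069, -0.0042 and -0.029 in drought plants 1, 2 and 4. Such offsets between arrays enter the SD of every probe, and the 36.0% was not recomputed on arrays centred on their medians. Relative to the array medians, *Glyma01g24530* stood at -3.75, -3.55 and -3.72 with water. The SD was then 0.11 with water and 0.17 under drought. After quantile normalization it was 0.30 with water and 0.095 under drought, so the like size of the SDs depends on the scaling of the arrays. The SDs of the deposited values rest on few plants. Without plant 16 that with water was 0.068 (n = 2), while without plant 4 that under drought was 0.10 (n = 2). Plant 16 therefore had the lowest deposited value of the gene, but plant 14 the lowest relative to its array.

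The genes next to it on the chromosome were also examined. The Glyma1 IDs are numbered along the chromosome, and of the 3 IDs with a probe on each side of *Glyma01g24530*, 0 were called by limma. Before adjustment, 2 of these 6 had a p below 0.05, and the methods' t-test called 0. Over all probes, limma called 9.46%, the methods' t-test called 5.75%, and 26.5% had a p below 0.05 before adjustment, so these counts do not set the neighbours apart. *Glyma01g24520*, described as a putative uracil phosphoribosyltransferase, is next before it and had a log2 difference of 0.54 (standard error 0.21, limma adjusted p = 0.12). *Glyma01g24540*, described as a putative lectin protein kinase, is next after it and had one of 0.067 (standard error 0.22, limma adjusted p = 0.91). The other 4 had log2 differences from -0.98 in *Glyma01g24490* (limma adjusted p = 0.016, just under the fold of 2) to 0.13 in *Glyma01g24550*.

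Over the 25 probes on each side, 4 of 50 were called higher and 0 lower by limma. Of all 66195 probes, 4.33% were called higher and 5.14% lower, and of the 3139 probes with a chromosome 1 ID, 4.24% and 4.75%. The 4 are named here after their values were seen. *Glyma01g24360*, described as a haloacid dehalogenase-like hydrolase, rose by 3.37 (standard error 0.29, limma adjusted p = 3e-05). *Glyma01g24710*, whose description gives a protein of unknown function, rose by 2.95 (standard error 0.24, limma adjusted p = 2.1e-05). *Glyma01g24680* and *Glyma01g24790*, with no description, rose by 1.12 and 1.08. The median log2 difference of the 50 neighbours was 0.027, near 0 as for chromosome 1 as a whole (-0.049).

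**Figure D4:**
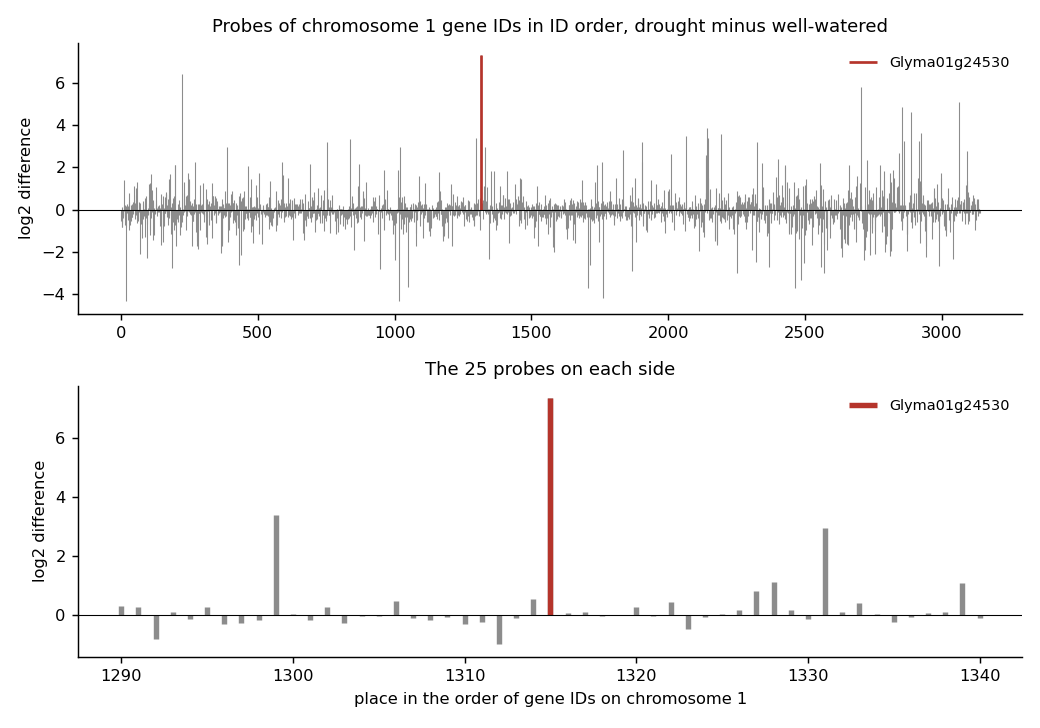
Log2 difference of drought-stressed minus well-watered leaves (y axis) for the 3139 probes of chromosome 1 gene IDs in ID order (top) and for the 25 probes on each side of *Glyma01g24530* (bottom). The gene (red, at place 1315) is the highest bar of the chromosome, and the highest bar near it is *Glyma01g24360* at 3.37.

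*Glyma01g24530* had the largest rise of chromosome 1, and of the 1850 probes with an annotation row used here, 0 had a larger one. These rows, some of which give no description, cover mostly chromosome 1. The order over all described genes of the soybean genome was therefore not analysed here. Another 3 probes of this chromosome rose more than 32-fold, named here after their values were seen, and all 3 have a description. The match of ELI3-2, an *Arabidopsis* alcohol dehydrogenase induced by elicitors, is *Glyma01g02580*, which rose by 6.41 (standard error 0.44, limma adjusted p = 6.8e-06). Its drought-stressed plants ranged from 2.33 to 4.07, a far wider spread than that of the P5CS1 match. The match of the expansin-like cell wall protein EXLB1, *Glyma01g41330*, rose by 5.80 (standard error 0.17, limma adjusted p = 6.6e-08). The match of the hexose transporter STP13, *Glyma01g44930*, rose by 5.10, with values of 2.44, 2.38 and 2.75 under drought and -2.58, -2.38 and -2.77 with water.

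The descriptions used here name 2 further genes of proline metabolism, both of them arginase genes of the ornithine route. Neither was called by limma, neither had a p below 0.05 before adjustment (0 of 2), and the methods' t-test called 0. With shares of 9.46%, 26.5% and 5.75% over all probes, 0 of 2 is no result about these genes as a group. *Glyma01g33640* had log2 values of -0.058, 0.036 and -0.036 in drought plants 1, 2 and 4 and 0.29, 0.36 and -0.19 in well-watered plants 14, 15 and 16, so the groups overlapped. Its log2 difference was -0.17 (standard error 0.19, limma adjusted p = 0.66, 95% interval -0.59 to 0.25). *Glyma01g33750* had values of -0.18, -0.029 and 0.098 under drought and -0.18, 0.13 and 0.029 with water, which overlapped too. Its log2 difference was -0.027 (standard error 0.17, limma adjusted p = 0.95, 95% interval -0.40 to 0.35). Both intervals stop short of a change of 2-fold in either direction. No description in these rows names a pyrroline-5-carboxylate reductase, a proline dehydrogenase, a pyrroline-5-carboxylate dehydrogenase, an ornithine aminotransferase or a proline transporter, and further soybean P5CS genes were not analysed here.

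Glutamate is the substrate of P5CS, and glutamate dehydrogenase links it to its keto acid. The match of GDH2, *Glyma01g41310*, was the 1 gene found for glutamate supply. Its values were 0.12, 0.031 and -0.035 under drought and 0.15, -0.031 and -0.14 with water. The groups overlapped, and the log2 difference was 0.048 (standard error 0.16, limma adjusted p = 0.91, 95% interval -0.31 to 0.41).

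The list for other osmolytes found 1 gene by its description, the match of TPS9, a member of the trehalose phosphate synthase family. Whether it takes part in making an osmolyte was not tested. This gene, *Glyma01g03870*, had values of -0.70, 0.14 and 0.36 under drought and -0.061, 0.061 and -1.89 with water. Its plants varied far more than those of the P5CS1 match, with an SD of 1.10 among well-watered plants. Its log2 difference was 0.56 (standard error 0.47, limma adjusted p = 0.55, 95% interval -0.50 to 1.62). Well-watered plant 16 stood apart, and without it the difference was -0.068. The glutamate and osmolyte genes were 0 of 2 called by limma, with 0 at a p below 0.05 before adjustment and 0 by the methods' t-test, against the same shares of 9.46%, 26.5% and 5.75% over all probes, so this count too is no result about them.

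The probes most like *Glyma01g24530* over the 6 plants were found by the root mean square difference of their log2 values from its own. The 10 closest were, in order, *Glyma09g31740* (0.21), *Glyma20g29770* (0.24), *Glyma17g10950* (0.27), *Glyma03g24320* (0.27), *Glyma19g41550* (0.37), *Glyma07g03780* (0.37), *Glyma15g25060* (0.38), *Glyma14g24860* (0.39), *Glyma07g12780* (0.39) and *Glyma07g12750* (0.44). The median over all other probes was 3.70. All 10 were large rises, with log2 differences between 6.72 and 7.93, and none has a description in the rows used here. Since every probe is centred on its median, this measure finds probes of like change and not of like level.

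**Figure D5:**
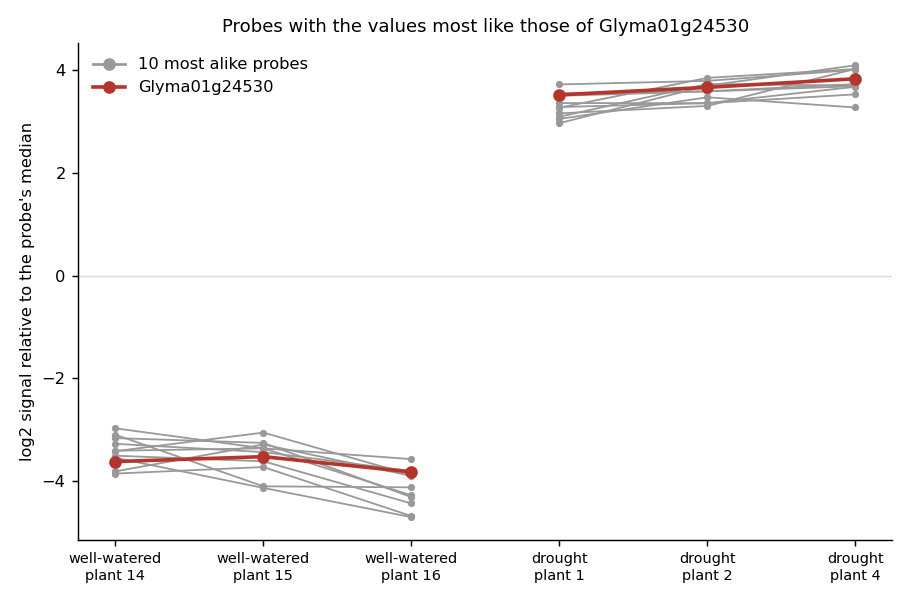
Log2 signal relative to each probe's median (y axis) in the 6 plants (x axis) for *Glyma01g24530* (red) and the 10 probes with the smallest root mean square difference from it (grey). Lines join the values of 1 probe within a group, whose plants have no order. In well-watered plant 16 the values of the 10 probes ran from -3.57 to -4.70, against -3.82 for the gene.

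Pearson's correlation over the 6 plants was 0.995 to 0.999 for these 10 probes. It hardly tells large rises apart, since any probe that separates the groups cleanly comes near to 1, and 428 probes called higher reached at least 0.99.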

How the data were processed

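RNA of V6 leaves, from 3 plants under drought and 3 with water, was hybridised to the soybean gene array. Each plant had 1 array, and groups were taken from the sample labels. The deposited log2 values were made by the authors by RMA at gene level in Affymetrix Expression Console, without normalization, and shifted to the 75th percentile of each array in GeneSpring. They are also centred, as the median of the 6 values is 0 for each of the 66195 probes (66184 gene IDs). A second deposited table holds the authors' fold change and p-values of the same comparison, of which only the gene IDs were used.

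All probes were fitted without a filter by limma 3.58.1 (lmFit, then eBayes) under R 4.3.3, with Benjamini-Hochberg adjustment over all probes. The fit has 4 residual and 5.93 prior degrees of freedom per probe, and its standard error for a log2 difference had a median of 0.19. Higher or lower means a fold of 2 or more with an adjusted p below 0.05, the thresholds of the study. Precision is limited by the number of arrays, and an exact permutation test of 3 against 3 plants cannot give a p under 0.1. Plants were treated as independent, which could not be checked because shared pots are not given. The p-values set each difference against the spread between these plants, which limma draws towards a common value.

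The gene and the lists were chosen with earlier results of these data known. Lists were keyword rules applied to the 1849 annotation rows used here, and they found 3 genes for proline, 1 for other osmolytes and 1 for glutamate supply. Marker lists for photosynthetic cells, phloem and root nodules found 0 genes, and without absolute levels the labelled tissue could not be checked. The plan named *Glyma01g24530*, the list genes, the 10 probes most like it, and its neighbours by ID and by rank. All other probes named, such as the tighter ones among the large rises, *Glyma17g17860* and *Glyma05g05430*, were added after their values were seen. The code was tested on simulated data. Alternatives were other centring or normalization of the arrays, the methods' t-test, array quality weights, a robust prior, no minimum fold, another measure of likeness or of error, and each plant left out in turn. R2 leaves were not analysed here.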

Additional observations from a re-analysis of the deposited data

How the results depend on the processing

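With 3 plants per group and no absolute level, these data do not show whether the well-watered signal of *Glyma01g24530* was above background. Quantile normalization gave a log2 difference of 6.77, the 8th place by difference over its standard error, an SD of 0.30 with water and a pooled SD above that of 52.5% of probes, and the cause was not tested. With the plain pooled standard error that place was the 7th. Without each plant in turn, the log2 difference lay between 7.25 and 7.41, the place by difference between 7 and 10, and the place by difference over its standard error between 2 and 4. The share of probes with a smaller pooled SD then lay between 18.2% and 37.4%, the highest without well-watered plant 14. By Pearson correlation, 0 of the 10 most alike probes were those of the root mean square difference. Over all probes, the methods' t-test called 1808 higher and 2000 lower, and with no minimum fold 5131 were higher and 5706 lower. Of 154 comparisons of a value with its alternative, all lists included, 142 stayed within the spread between plants or within 1.5 times the count. Many of these are counts of genes called in lists of 3, 1 and 1 genes. Such counts were 0, or 1 for *Glyma01g24530* itself, and had little room to change. The 142 also include every alternative for the SD of a group, the SD of 0.30 with water among them, so for an SD this limit was wide. No paired analysis was possible because the plant numbers differ between the groups. Promoter motifs were not run, since no promoter sequence was used here.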
